A study of Mus musculus with 2 samples.

Results

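The genes described here are the members of the solute carrier families that move sodium, chloride, bicarbonate and phosphate across epithelial membranes, together with the subunits of the sodium pump. They were taken by symbol from the count table (Slc4a, Slc8a, Slc9a, Slc12a, Slc17a, Slc20a, Slc24a, Slc26a, Slc34a, Atp1a and Atp1b genes, with Slc12a2 left out) and had to reach 10 counts in at least one library. Of the 19294 genes listed, 49 matched by symbol and 48 reached the minimum. The gene left below it was Slc24a1, with 3 counts in the control library and 4 in the DSS library. Among those just inside were Slc12a3, with 3 and 10 counts, and Slc26a10, with 9 and 15, which entered through the DSS library alone, and Slc24a3, with 15 and 5, which entered through the control library alone. The minimum was met in both libraries by 44 members.

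Poly(A) RNA was sequenced from mouse intestinal organoids (mIOs), which are miniature epithelia grown from jejunal crypts in Matrigel with EGF, Noggin and R-spondin. One library came from control mIOs and one from mIOs treated with dextran sulfate sodium (DSS), a polymer used to injure the gut lining, and the label of both is day 4. Both carried the Lgr5-EGFP-IRES-creERT2 allele, which places EGFP and an inducible Cre under the Lgr5 locus of crypt base stem cells. The sources used here give no age or number of animals and no DSS dose for the sequenced culture.

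Salt and water absorption in the small intestine runs on the sodium pump. The pump sits in the basolateral membrane and keeps intracellular sodium low, and this gradient drives apical carriers. Sodium/proton exchangers of the SLC9 family and chloride/bicarbonate exchangers of the SLC26 family work side by side in the brush border to take up sodium chloride, while sodium phosphate cotransporters of the SLC34 and SLC20 families take up phosphate. Bicarbonate cotransporters of the SLC4 family and potassium chloride cotransporters of the SLC12 family supply or release ions at other membranes. Absorptive carriers of the brush border are known as products of mature villus enterocytes rather than of crypt cells.

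The total was 65493032 counts for control mIOs and 59746968 for DSS-treated mIOs. Counts were scaled with TMM factors, which correct the library size for its composition, and levels are given as CPM, the count relative to the scaled library size. The change is the log2 ratio of scaled counts, DSS over control, with a 95% counting interval from the counts of both libraries. With 1 library per condition there is no replicate error, nothing was tested, and each interval describes the counting of reads alone. The lines of 2-fold and 4-fold, log2 ratios of 1 and 2, describe size and are not calls of significance.

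The annotated starts of 4 apical members that were higher in the DSS library are shown here, since these carriers share a membrane and a direction in the data below. Each sequence is the 250 bases before the transcription start that RefSeq gives in GRCm38.p6, written 5′ to 3′. Capitals mark matches, on either strand, to any of 6 motifs searched: the letters CAAAGT for HNF4, the letters GTTAAT for HNF1, the letters TTTATG for CDX, the letters AGATAA for the GATA factors, the letters GGGCGG for the GC box and the letters TATAAA for the TATA box. No pair of these motifs has the same letters, and matches may overlap.
Slc34a2, chr5:53049103-53049352, plus strand: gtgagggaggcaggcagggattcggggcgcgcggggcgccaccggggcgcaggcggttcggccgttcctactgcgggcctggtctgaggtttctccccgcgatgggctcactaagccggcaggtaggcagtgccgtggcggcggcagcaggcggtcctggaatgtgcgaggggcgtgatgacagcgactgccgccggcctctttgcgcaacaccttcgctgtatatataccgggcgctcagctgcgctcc
Slc9a3, chr13:74121163-74121412, plus strand: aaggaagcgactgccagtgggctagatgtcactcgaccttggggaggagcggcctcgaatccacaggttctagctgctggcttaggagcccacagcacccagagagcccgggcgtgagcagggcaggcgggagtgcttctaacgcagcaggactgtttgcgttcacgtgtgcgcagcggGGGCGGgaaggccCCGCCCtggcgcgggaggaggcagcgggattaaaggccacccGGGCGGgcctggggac
Slc26a6, chr9:108853793-108854042, plus strand: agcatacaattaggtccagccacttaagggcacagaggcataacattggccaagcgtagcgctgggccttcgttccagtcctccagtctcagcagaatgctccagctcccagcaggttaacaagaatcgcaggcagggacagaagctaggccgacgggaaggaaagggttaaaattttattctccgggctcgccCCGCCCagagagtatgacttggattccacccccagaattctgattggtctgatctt
Slc26a3, chr12:31437969-31438218, plus strand: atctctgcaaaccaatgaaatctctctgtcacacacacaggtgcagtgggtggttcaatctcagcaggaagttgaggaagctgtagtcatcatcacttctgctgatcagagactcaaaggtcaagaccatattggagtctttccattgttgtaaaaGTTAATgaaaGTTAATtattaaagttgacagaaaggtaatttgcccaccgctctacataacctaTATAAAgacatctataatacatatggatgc

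The start of Slc26a3 differed from the others in base composition, with 38.8% G and C and 1 CG dinucleotide against 69.6% and 28 for Slc34a2, 67.6% and 19 for Slc9a3 and 53.2% and 9 for Slc26a6. It held the HNF1 letters at 2 places, from 94 to 89 and from 84 to 79 bases before the start, and TATAAA from 30 to 25 bases before it. Slc9a3 held the GC box letters at 3 places and Slc26a6 at 1, and the Slc34a2 window held none of the letters searched. The HNF1 letters occur in 6.43% of the 32851 RefSeq promoters of this length and TATAAA in 12.4%. Over the 45 promoters of the 34 members that matched the RefSeq table, GGGCGG was in 51.1%, against 32.7% of all promoters, and the median share of G and C was 62% against 52.4%. The other letters were found in 4.44% of member promoters for CAAAGT and 12.6% of all, in 4.44% for GTTAAT, in 8.89% and 10.8% for TTTATG, in 13.3% and 9.99% for AGATAA, and in 13.3% for TATAAA. These matches describe letters in the reference. Which start was used in the cultures was not measured.

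The transporter genes as a group lay higher in the DSS library. Of the 48 members, 36, or 75%, had a log2 ratio above 0 and 12 below, and their median was 0.94. Of the 17235 genes of the table that met the same minimum, 48% were above 0, and the median was -0.06. A log2 ratio of at least 1 was found for 24 members, or 50%, against 19.3% of all genes. A ratio of -1 or less was found for 3 members, or 6.25%, against 20.2% of all genes. At the 4-fold line, 8 members were higher, or 16.7% against 7.87% of all genes, and 1 was lower, or 2.08% against 6.54%. The 44 members with the minimum in both libraries had 21 at 1 or more, 2 at -1 or less and a median of 0.85, where the 15666 genes with that minimum had 16.8% at 1 or more, 18.9% at -1 or less and a median of -0.06. The counting interval lay above 0 for 30 members, below 0 for 8 and included 0 for 10. Of the 17235 genes, it lay above 0 for 6676, below 0 for 7354 and included 0 for 3205. Together the members took 0.62% of all control counts and 1.07% of all DSS counts, and most of this sum in both libraries came from the sodium pump group.

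The scaling sets the zero line of these ratios. Scaled to total counts instead, the median of all genes had a shift of -0.26, to -0.31, and every ratio moved with it. Then 20 members reached 1 and 5 reached -1, while 15.4% of all genes reached 1 and 26.2% reached -1. Among all genes past either 2-fold line, 48.9% were on the higher side with TMM factors and 37.1% with total counts, and among members past a line 88.9% and 80%. The distance between the median of the members and that of all genes was 0.99 with TMM, DESeq2, upper quartile and total count scaling. It could not differ among these, as each scaling moves every ratio by the same amount. Without a count minimum it was 0.86, and with a minimum of 50 counts in one library 1.04.

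**Figure D1:**
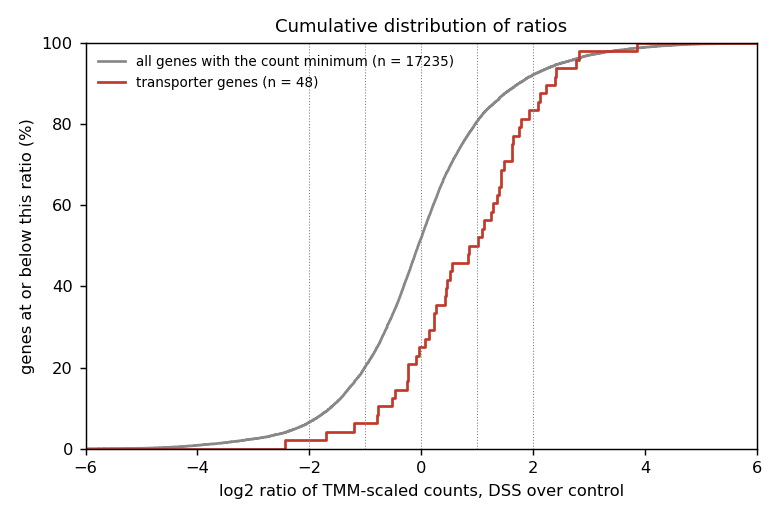
Cumulative share of genes, in percent, at or below each log2 ratio of TMM-scaled counts, DSS over control, for the 48 transporter genes and for all 17235 genes that met the count minimum. The curve of the transporter genes lies to the right of that of all genes through most of its range, with medians of 0.94 and -0.06.

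The libraries also differed in the markers of intestinal cell types. All 8 enterocyte markers (Alpi, Vil1, Fabp1, Fabp2, Apoa1, Apoa4, Sis and Lct) were higher in the DSS library, from 2009 to 20295 CPM in sum. So were all 4 goblet cell markers, from 228 to 4643 CPM, and all 4 enteroendocrine markers, from 698 to 3535 CPM. RT-PCR in the study found Vil1, Muc2 and Chga at similar levels in DSS-treated mIOs, and Lgr5 and Lyz decreased. In these libraries the log2 ratio was 1.25 for Vil1, 4.98 for Muc2 and 2.60 for Chga. All 4 crypt stem cell markers were lower, from 702 to 124 CPM in sum, as were all 4 Paneth cell markers, from 625 to 210 CPM, and the tuft cell markers were at 8.87 and 4.39 CPM in sum, with 3 of the 4 lower and Avil close to 0, at -0.08 on 140 and 101 counts. The labels name the cells as stem cells, but enterocyte and enteroendocrine markers were abundant in sum in both libraries. Some goblet cell markers were rare in the control library, such as Clca1 with 48 counts. General epithelial markers were at 4168 and 5516 CPM in sum, with a median log2 ratio of 0.03. Krt8 was at 0.84, whereas Epcam, Cdh1 and Krt18 were level, from -0.03 to 0.04. Of 6 mesenchymal markers, 2 were listed, at 0.447 and 0.567 CPM in sum, with Col1a2, Col3a1, Dcn and Lum not listed, and of 6 immune markers only Lyz2 and Cd68 were listed, at 8.77 and 12.7 CPM in sum, with Ptprc, Cd3e and Adgre1 among those not listed. The part of these marker differences in the transporter ratios was not tested. In bulk RNA, fewer cells of a type and less RNA per cell cannot be told apart.

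Among the subunits of the sodium pump, 4 of 5 were above 0. At 1 or more were 3, or 60%, against 19.3% of all genes. Of these 3, 1 rested on few counts and met the minimum in the DSS library alone. The share depended on the scaling. With total counts only the gene with few counts stayed at 1 or more, where 15.4% of all genes were. Atp1b1, the beta subunit that carries the pump to the membrane, had 89165 counts in the control library and 144779 in the DSS library, or 1246 and 2648 CPM. Its log2 ratio was 1.09, from 1.08 to 1.10, close to the 2-fold line, and it was 0.83 with total counts. Of the exon bases of Atp1b1, 7.44% overlap Nme7 on the opposite strand.

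The other beta subunit with many reads went the opposite way. Atp1b3 had 4215 counts in the control library and 1881 with DSS, which gives -0.78 on the log2 scale (interval -0.85 to -0.70), so that the ratio of Atp1b1 to Atp1b3 was 3.64 times higher in the DSS library. The beta subunits with many reads thus differed in direction. Atp1b2 had 26 and 29 counts, and its interval included 0.

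Among the sodium/proton exchangers, 4 were above 0 and 4 below, and the apical exchangers did not share a direction. Slc9a3, the NHE3 exchanger that carries most of the sodium absorption of the brush border, had 1233 and 4422 counts, or 17.2 and 80.9 CPM. Its log2 ratio was 2.23, with an interval from 2.14 to 2.32, and it was 1.98 with total counts. Slc9a2, the apical NHE2 exchanger, had 1846 and 4847 counts and a log2 ratio of 1.78, from 1.70 to 1.86. Slc9a3 and Slc9a2 were thus each more than 3-fold higher in the DSS library.

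Slc9a4, the NHE4 exchanger known from gastric and renal basolateral membranes, had the highest ratio of the family. It had 337 and 1368 counts and a log2 ratio of 2.41 (interval 2.24 to 2.59). Slc9a7, an exchanger of the trans-Golgi network, was at 1.41 on 28 and 57 counts, from 0.74 to 2.12. Slc9a2, Slc9a3, Slc9a4 and Slc9a7 were all higher in the DSS library, by 2.66-fold for Slc9a7 to 5.31-fold for Slc9a4.

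Others of the family were lower in the DSS library. Slc9a8, an exchanger of the brush border and of endosomes, was at -0.25, from -0.32 to -0.18, with 4260 and 2736 counts. Slc9a5, the NHE5 exchanger known from brain, was the lowest, with 264 and 62 counts and a log2 ratio of -1.70, from -2.12 to -1.30.

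Slc9a3 and Slc9a2 differed in the size of their ratios. Relative to Slc9a2, Slc9a3 was 1.37 times higher in the DSS library than in the control, with an interval from 1.26 to 1.49. This change of a ratio does not depend on transcript length or on the scaling of the libraries. Per kilobase of transcript, Slc9a3 was at 1.35 times the level of Slc9a2 in the control library and at 1.84 times in the DSS library. With the longest annotated transcripts as lengths, the values were 0.655 and 0.895, so which of the exchangers was the more abundant depended on the length used.

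Both libraries also held the scaffold proteins named after Slc9a3, which match the symbols of the family without being transporters. Slc9a3r1, the NHERF1 scaffold that ties apical carriers to the cytoskeleton through ezrin, had 8573 and 20055 counts, or 120 and 367 CPM. Its log2 ratio was 1.61, with an interval from 1.58 to 1.65. Slc9a3r2, the NHERF2 scaffold, had 163 and 23 counts and a log2 ratio of -2.44, from -3.13 to -1.80, the lowest ratio of all members. The related scaffolds thus lay on opposite sides of 0, and Slc9a3r1 relative to Slc9a3r2 was 16.6 times higher in the DSS library, with an interval from 10.7 to 26.9. The third match by name only, Slc4a1ap, was at 0.07, with an interval that included 0 and a sign that turned with total counts.

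**Figure D2:**
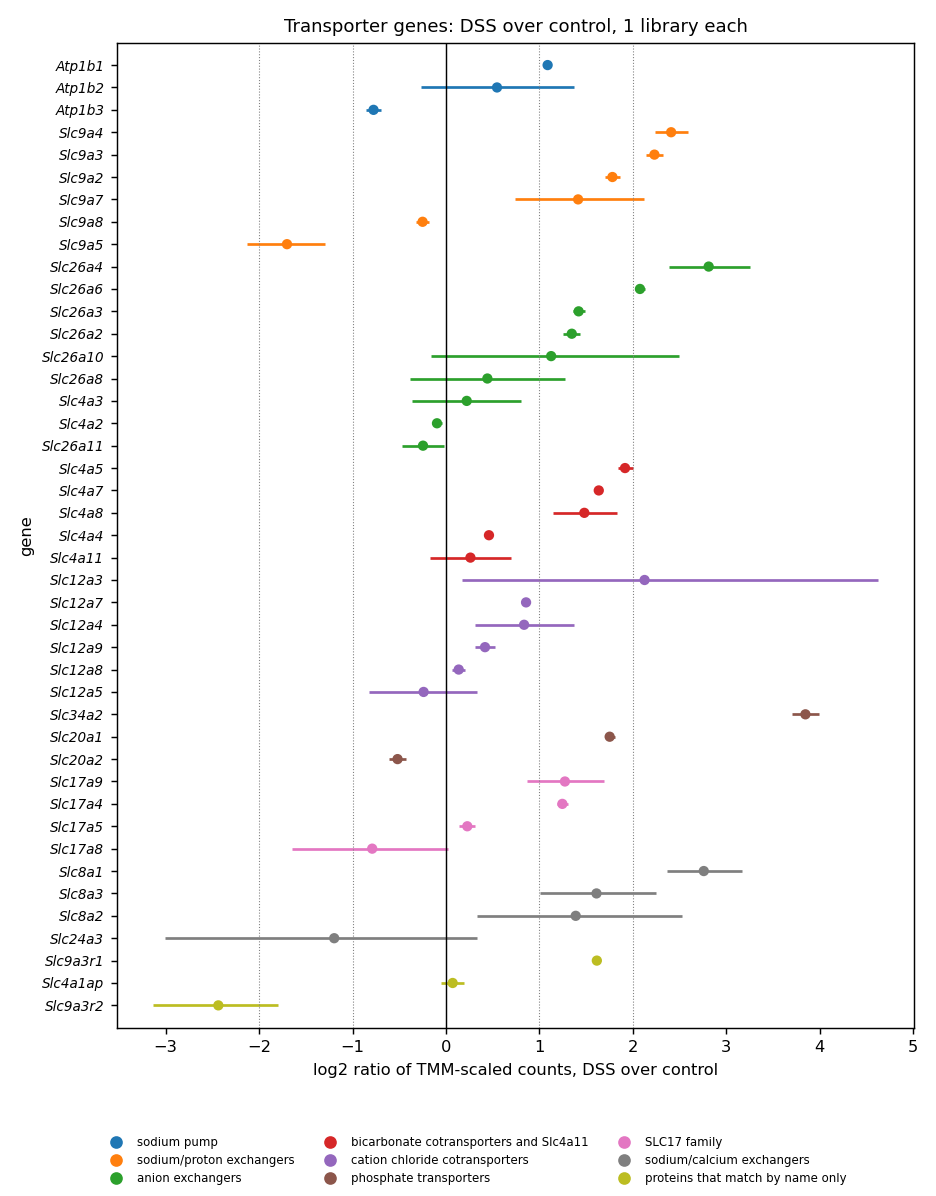
Log2 ratio of TMM-scaled counts, DSS over control, for 43 of the 48 transporter genes, colored by role and sorted within each role, with lines for the 95% counting intervals and dotted lines at 2-fold and 4-fold. Slc34a2 is the highest at 3.85 and Slc9a3r2 the lowest at -2.44, and wide intervals mark genes with few counts such as Slc12a3 and Slc24a3.

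The chloride and bicarbonate exchangers known from the brush border were higher in the DSS library. Slc26a6, the apical PAT1 exchanger of chloride, bicarbonate and oxalate, had 4437 counts in the control library and 14292 in the DSS library, or 62 and 261 CPM. Its log2 ratio was 2.08, with an interval from 2.03 to 2.12, and 1.82 with total counts. Slc26a3, the DRA exchanger that is mutated in congenital chloride diarrhea, had 3062 and 6258 counts and a log2 ratio of 1.42, from 1.36 to 1.48. Both partners of Slc9a3 in sodium chloride uptake were thus higher, Slc26a6 by 4.22-fold and Slc26a3 by 2.68-fold, and the ratio of Slc26a6 to Slc26a3 was 1.58 times higher in the DSS library, with an interval from 1.49 to 1.67.

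Slc26a2, a sulfate transporter that supplies the sulfation of glycoproteins, was 2.54-fold higher, with 1531 and 2974 counts and a log2 ratio of 1.35, from 1.26 to 1.44. Slc26a4, the pendrin exchanger known from thyroid, kidney and inner ear, had 55 and 295 counts and a log2 ratio of 2.81, from 2.39 to 3.25, at a low level of 5.4 CPM in the DSS library. The basolateral anion exchanger Slc4a2, known as AE2, did not share this direction. It had 7440 and 5317 counts and a log2 ratio of -0.10, from -0.15 to -0.05. Slc26a6 relative to Slc4a2 was 4.51 times higher in the DSS library, from 4.29 to 4.73. Of the exons of Slc4a2, 14.9% of the bases overlap Fastk on the opposite strand in GENCODE vM21, and the use of strand in counting is not given in the sources used here.

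Over all 9 anion exchangers, 7 were above 0 and 2 below, and the median was 1.13. At 1 or more were 5, or 55.6%, against 19.3% of all genes. The median is the value of Slc26a10, which met the minimum in the DSS library alone. Over the 8 anion exchangers with the minimum in both libraries it was 0.89, and with total counts over all 9 it was 0.87. The 4 not described, Slc26a10, Slc26a8, Slc4a3 and Slc26a11, ran from -0.25 to 1.13. Slc26a10 had 9 and 15 counts and shares 22.8% of its exon bases with B4galnt1 on the opposite strand, which had 9551 and 7066 counts, and reads of the pair cannot be told apart if strand was not used. Slc4a3 turned below 0 with total counts.

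The sodium bicarbonate cotransporters were all above 0, with a median of 1.48 over the 5 genes of the group, which includes the related carrier Slc4a11. Slc4a7, the NBCn1 cotransporter, had 12187 and 28922 counts, or 170 and 529 CPM. Its log2 ratio was 1.64, with an interval from 1.60 to 1.67. Slc4a5, the electrogenic NBCe2 cotransporter, had 1717 and 4951 counts and a log2 ratio of 1.92, from 1.84 to 2.0. Slc4a8, a sodium-driven chloride/bicarbonate exchanger, was at 1.48 on 106 and 226 counts, from 1.14 to 1.83.

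Slc4a4, the electrogenic NBCe1 cotransporter of the basolateral membrane, moved less than these. It had 13039 and 13702 counts and a log2 ratio of 0.46, from 0.43 to 0.49. Slc4a7 relative to Slc4a4 was 2.26 times higher in the DSS library, from 2.19 to 2.33. The log2 ratio of Slc4a11 was 0.26, with an interval that included 0.

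Phosphate transport showed the widest spread of any role group, from -0.52 to 3.85 over 3 genes. Slc34a2, the NaPi-IIb cotransporter that takes up dietary phosphate at the brush border, had 450 counts in the control library and 4947 in the DSS library, or 6.29 and 90.5 CPM. Its log2 ratio of 3.85 (interval 3.71 to 3.99), was the highest of all members and a 14.4-fold difference. Slc20a1, the PiT-1 cotransporter, had 3745 and 9636 counts and a log2 ratio of 1.75, from 1.70 to 1.81. Its paralog Slc20a2, or PiT-2, was lower in the DSS library, with 2642 and 1409 counts and a log2 ratio of -0.52, from -0.61 to -0.42.

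The order of the phosphate carriers differed between the libraries. Per kilobase of transcript, Slc34a2 was the lowest of the 3 in the control library, at 1.51 CPM per kb against 10.4 for Slc20a2 and 15.8 for Slc20a1. In the DSS library it was at 21.7 CPM per kb, above Slc20a2 at 7.23 and below Slc20a1 at 53.2. Relative to Slc20a2, Slc34a2 was 20.6 times higher in the DSS library, with an interval from 18.3 to 23.2, and Slc20a1 was 4.82 times higher, from 4.47 to 5.2. The longest annotated transcripts gave the same lengths for these 3 genes. Slc34a1 and Slc34a3, the renal cotransporters of the family, were not in the count table.

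**Figure D3:**
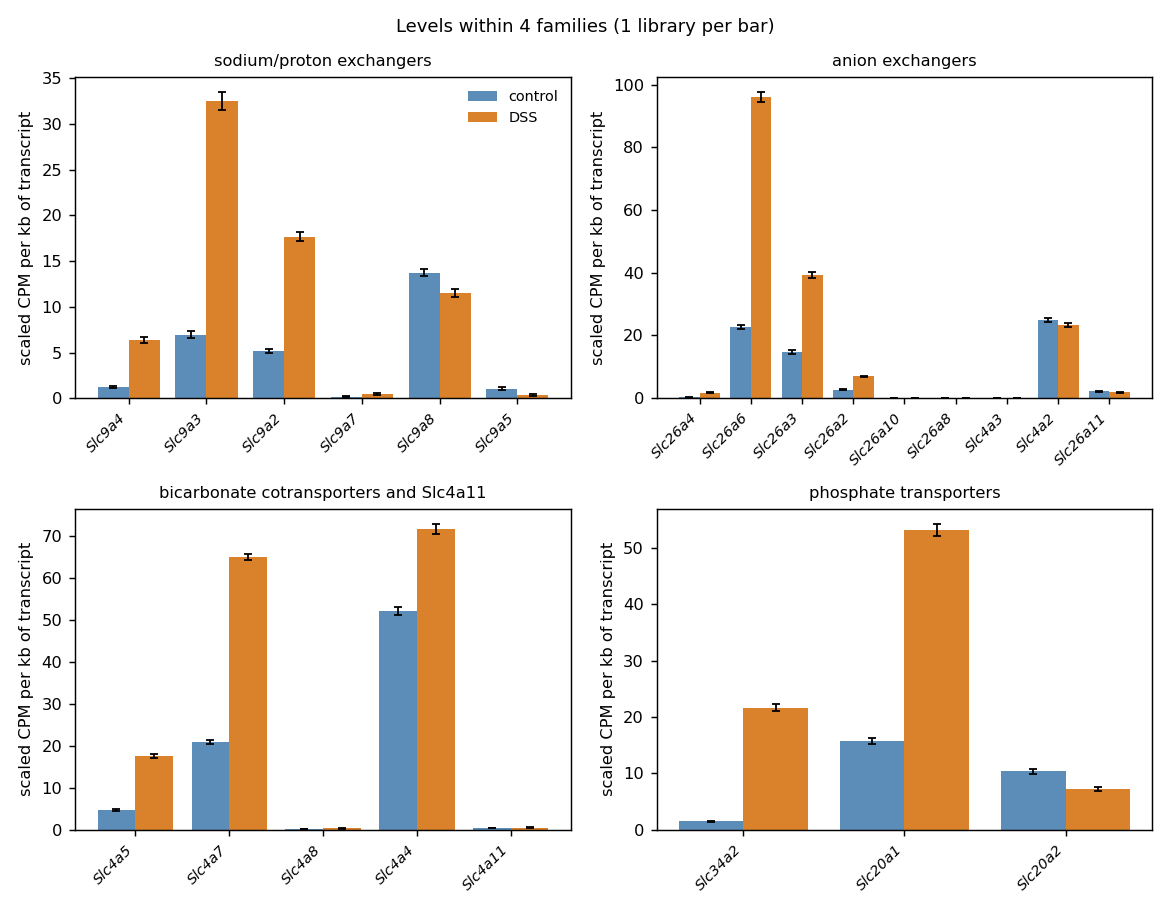
Levels of genes in 4 families as TMM-scaled CPM per kilobase of transcript, with control in blue and DSS in orange, 1 library per bar, and 95% Poisson intervals of counting error as error bars. The order of genes within a library can depend on the transcript length used. With the longest annotated transcripts, the ratio of Slc4a7 to Slc4a4 in the DSS library is 2.06 in place of 0.907. The ratio of Slc26a6 to Slc26a3 in the control library is then 0.966 in place of 1.55. Slc9a3, Slc9a2, Slc26a6, Slc4a7, Slc34a2 and Slc20a1 have taller DSS bars, whereas Slc4a2 has bars of similar height and Slc20a2 has a lower DSS bar.

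The SLC17 family holds carriers named for phosphate and others of lysosomes and vesicles. Slc17a4, an organic anion and phosphate carrier of the intestine, had 3591 and 6504 counts and a log2 ratio of 1.25 (interval 1.19 to 1.30). Slc17a9, the vesicular nucleotide transporter that loads ATP, was at 1.27 on 78 and 144 counts, from 0.87 to 1.69. Slc17a5, the lysosomal sialic acid exporter, was at 0.23 and turned below 0 with total counts. Slc17a8, a vesicular glutamate transporter, was at -0.79 on 43 and 19 counts, with an interval that included 0. The family thus had 2 of 4 members at 1 or more, or 50%, against 19.3% of all genes. With total counts Slc17a4 was at 0.99, where 15.4% of all genes were at 1 or more.

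The cation chloride cotransporters were mostly higher in the DSS library by less than 2-fold. Slc12a7, the KCC4 potassium chloride cotransporter, was the most abundant, with 7633 and 10562 counts and a log2 ratio of 0.86, from 0.81 to 0.90. Slc12a4, or KCC1, rested on 55 and 75 counts and was at 0.84, from 0.31 to 1.37. Of the 7 genes, 6 were above 0. At 1 or more was a single gene, or 14.3% of the group against 19.3% of all genes. It was Slc12a3, the thiazide-sensitive cotransporter of the kidney, on 3 and 10 counts. Slc12a9 was at 0.42 and Slc12a5, the neuronal KCC2, at -0.24 with an interval that included 0, and Slc12a8, at 0.14, turned below 0 with total counts.

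The sodium/calcium exchangers were rare, with 124 counts in the control library and 437 in the DSS library over 4 genes. Slc8a1, the NCX1 exchanger of plasma membranes, had 64 and 331 counts and a log2 ratio of 2.76 (interval 2.37 to 3.17). Slc8a3 was at 1.61 on 33 and 77 counts, from 1.01 to 2.25, and Slc8a2 at 1.39 on 12 and 24 counts. Slc24a3, a potassium-dependent exchanger, was at -1.20 on 15 and 5 counts, and its interval included 0. All 3 SLC8 genes were higher in the DSS library. These genes are known from excitable cells, and the summed markers of neurons and glia, of which 5 of 6 were listed and Sox10 was not, were at 4.89 and 17.5 CPM, with 4 higher and 1 lower. Of 4 endothelial markers 2 were listed, Pecam1 and Tek, at 0.335 and 2.78 CPM in sum, both higher, with Cdh5 and Kdr not listed. The part of such cells in the SLC8 counts was not tested.

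**Figure D4:**
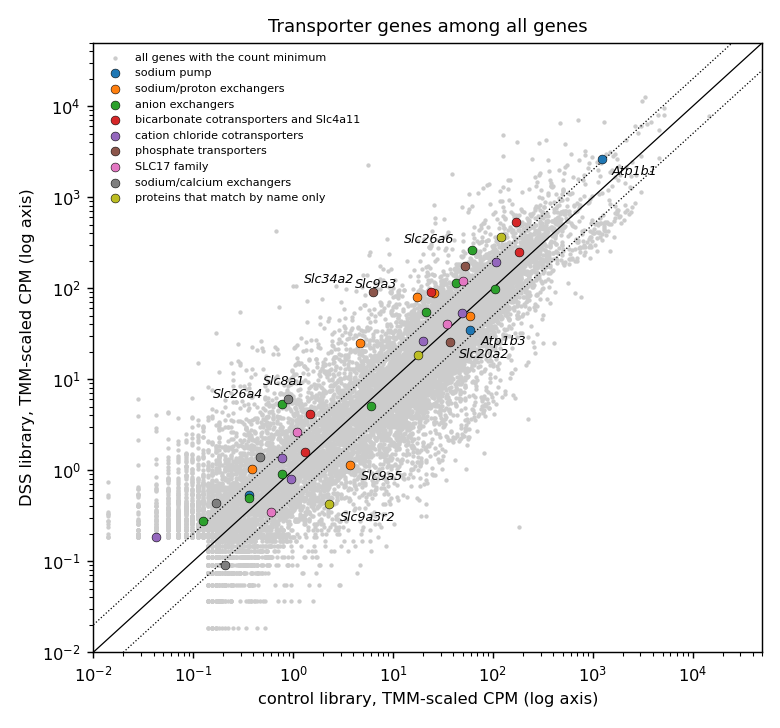
TMM-scaled CPM in the control library against the DSS library on log axes, with all genes that met the count minimum in grey and 43 of the 48 transporter genes colored by role. The solid line marks equal levels and the dotted lines 2-fold differences. Slc34a2, Slc9a3 and Slc26a6 stand above the upper dotted line, Slc9a5 and Slc9a3r2 below the lower one, and Atp1b1 is at the top right at 1246 and 2648 CPM.

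A list of regulators and partners of these carriers was examined beside them. Of 39 genes in the list, 31 were in the table. Their median log2 ratio was 0.62, with 21 above 0 and 10 below. A ratio of at least 1 was found for 10 genes, or 32.3% of the list, and a ratio of -1 or less for 2, or 6.45%, read against the same 19.3% and 20.2% of all genes. With total counts 8 genes were at 1 or more, where 15.4% of all genes were.

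The genes with the largest ratios above 0 were the following, chosen for their size and not for a shared role. Pdzk1, a scaffold of the NHERF family that binds brush border carriers, had 232 and 3214 counts and a log2 ratio of 4.18 (interval 3.99 to 4.38). Chp2, a calcineurin-like protein that binds sodium/proton exchangers, had 1542 and 9360 counts and was at 2.99, from 2.91 to 3.07. Sgk1, the kinase induced by corticosteroids that activates sodium transport, had 316 and 1994 counts and was at 3.05, from 2.87 to 3.22. Fxyd6, a small subunit that modulates the sodium pump, was at 3.45 on 64 and 536 counts, from 3.08 to 3.85. These 4 genes were all past the 4-fold line in the DSS library. Chp1 and Tesc, which like Chp2 bind sodium/proton exchangers, were not. Chp1 was at 0.02, or below 0 with total counts, and Tesc, on 13 and 9 counts, at -0.14. Each had an interval that included 0. Ezr, the ezrin to which the scaffolds bind, was at 0.93 on 35375 and 51349 counts. Relatives of Fxyd6 and Sgk1 in the list did not all share their direction. Fxyd3 was at -0.36 on 938 and 559 counts and Sgk3 at -0.51 on 1896 and 1019. Fxyd5, on 15 and 33 counts, was at 1.53, and Fxyd2, on 10 and 15, at 0.97 with an interval that included 0.

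The lowest regulator was Hsd11b2, the enzyme that shields the mineralocorticoid receptor from glucocorticoids, with 264 and 41 counts and a log2 ratio of -2.30, from -2.81 to -1.82. The receptor itself, Nr3c2, was at 1.70, from 1.59 to 1.81. The kinases that control the cation chloride cotransporters were level or lower. These genes, with Nr3c2, Ezr, Chp1, Tesc, Cab39, Sgk3, Fxyd2, Fxyd3 and Fxyd5, were picked out after their values were seen. Wnk4 was at -1.06, Stk39 at -0.73, Wnk2 at -0.54, Oxsr1 at -0.10 and Wnk1 at -0.06, and Wnk1 turned above 0 with upper quartile factors. Their adaptor Cab39 was at 0.71 and Wnk3 was not in the table.

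**Figure D5:**
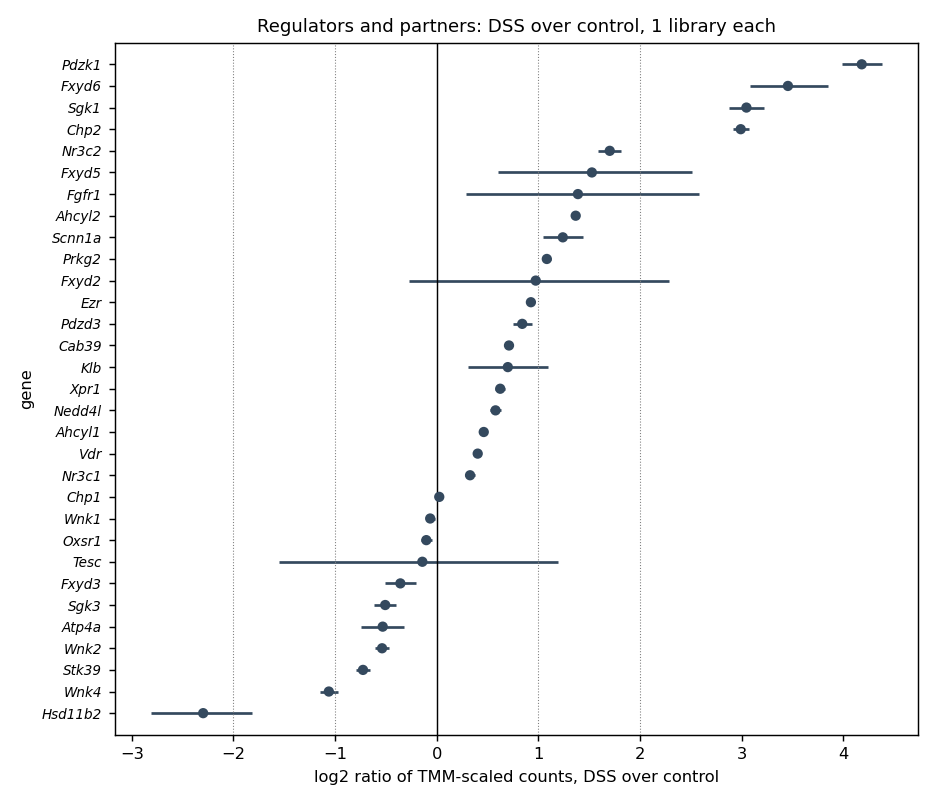
Log2 ratio of TMM-scaled counts, DSS over control, for the 31 regulators and partners in the table, sorted by ratio, with lines for the 95% counting intervals and dotted lines at 2-fold and 4-fold. Pdzk1 at 4.18, Fxyd6, Sgk1 and Chp2 are past the upper 4-fold line and Hsd11b2 at -2.30 is past the lower one.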

How the data were processed

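mRNA-seq libraries of 1 control and 1 DSS-treated culture were made with a stranded poly(A) kit. The values deposited by the authors are counts of reads for each gene, not normalized. HISAT2 and StringTie are listed in the submitters' processing notes, with no role or version, and the genome build and counting settings are not given in the sources used here. The single-sample files, although called FPKM, match these counts at all 19294 genes. No gene in the table has 0 counts in either library, so a gene without reads in 1 library is not listed. A gene that is not listed may thus have had reads in the other library.

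The members, lists and alternatives were chosen with earlier results of these data known. Counts, from 59746968 to 65493032 per library, were scaled with TMM factors (1.09 and 0.915) in edgeR 4.0.16 under R 4.3.3. Log2 ratios have exact Clopper-Pearson 95% intervals, and changes of a ratio between genes have exact conditional intervals of the odds ratio. The computation was tested on simulated counts. Transcript lengths are medians of the GENCODE vM21 transcripts matched to the listed RefSeq accessions, found for 48 of 48 members. The genes named are members past the 2-fold line with at least 50 counts in one library, the most abundant member of each role group, the members best known in intestine and the 5 regulators with the largest ratios among those with at least 50 counts. Some genes that the rule names are not reported here, but they are part of the counts and medians. Other members and regulators given with values were chosen after these were seen. As alternatives, scaling used total counts, upper quartile factors or the size factors of DESeq2 1.42.0, and others were centering, a prior count of 2, thinning of the control library and other count minimums. Python 3.11.15, scipy 1.17.1 and matplotlib 3.10.9 were used.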

Additional observations from a re-analysis of the deposited data

How the results depend on the processing

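No paired analysis was possible because each condition is 1 library. The counts of members past the lines, the number above 0 and the median of the members kept their direction under all 9 alternatives, with medians from 0.68 with total counts to 1.03 with upper quartile factors. Total counts gave 5 members at -1 or less in place of 3, with Atp1b3 and Slc17a8 added, and 5 at 2 or more in place of 8, without Slc12a3, Slc26a6 and Slc9a3, and a median of 0.37 for the regulators and partners. Upper quartile factors left 1 regulator at -1 or less, Hsd11b2, in place of 2. A uniform shift of all ratios is the construction of these settings. A prior count of 2 brought Slc12a3 under the 4-fold line and Slc26a10 and Slc24a3 inside the 2-fold lines, all genes with few counts. Genes with under 50 counts in both libraries, 8 of the 48 members, have wide intervals, and variation between cultures was not measured.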
